A study of Mus musculus with 15 samples.

Results

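CAR macrophages were set against the progenitor cells of the same series, to see which progenitor features these macrophages kept or regained and which macrophage features they held. The comparison used 6 of 15 messenger RNA libraries, 3 of CAR macrophages and 3 of progenitor cells. All cells came from mouse bone marrow and are labelled as primary cells. The CAR macrophages carry the genotype "CAR expression" and the treatment "CAR treated" in the labels, and the progenitor cells are wild type and untreated. Beside them stand control-CAR macrophages, labelled with control-CAR expression and treatment, also as 3 libraries. The labels name neither the receptor's target nor the vector, strain, age or culture time, and do not say whether the 3 libraries of a group were separate cultures. P-values then measure only the spread between these libraries, which may be technical. The remaining groups, untreated wild-type Hoxb8 macrophages and BMDM (macrophages grown from bone marrow), entered the shared fit only, except where a BMDM level is given. No earlier stage of the CAR macrophages was analysed here, so a feature they kept and one they regained cannot be told apart.

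A chimeric antigen receptor (CAR) is an engineered surface receptor that directs an immune cell to a chosen antigen. Myeloid progenitors of the granulocyte and monocyte line divide quickly, carry Kit, Cd34 and Flt3 on the surface and fill azurophil granules with proteases and myeloperoxidase. Forced Hoxb8, a homeobox transcription factor, holds such cells in that dividing state, and withdrawing its activity lets them mature. Maturing macrophages often divide less, though many can still divide, and they enlarge the lysosome. They carry proteins such as F4/80 (Adgre1), CD68 and the CSF1 receptor. Signals such as interferon gamma switch on further genes for microbial killing and antigen presentation.

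The CAR libraries held 17779804 to 18498159 estimated counts and the progenitor libraries 17505931 to 17964455. A count above 0 was found for 14740 to 14815 genes per CAR library, against 12539 to 12598 per progenitor library. The 10 most abundant genes took 8.76% to 8.82% of the CAR counts, against 3.78% to 3.96% of the progenitor counts. Levels are given in FPKM (fragments scaled to transcript length and library size), as values per library or as mean ± SD of 3 libraries. Differences are log2 ratios from edgeR, after TMM scaling, which assumes that most genes do not differ. Each SE was worked back from the F statistic of the test and the difference fitted without a prior count. It is approximate, and it can be far too small for genes with few counts in 1 group, such as those near 0 FPKM in progenitor cells. With library totals as the scale, the median difference of all genes was lower by 0.478 on the log2 scale, so a gene with a small rise under TMM can be level or lower in FPKM. TMM factors were 1.46 to 1.47 for progenitor, 1.05 for CAR and 0.825 to 0.877 for control-CAR libraries. Beside progenitor cells, FPKM levels and percents of CAR and, more so, control-CAR macrophages therefore read lower than under TMM. In bulk RNA, fewer cells of a type and less RNA per cell cannot be told apart.

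Most genes differed. Of 11793 genes tested, 10097 passed an adjusted p of 0.05 (85.6%), with 5418 higher (45.9%) and 4679 lower (39.7%) in CAR macrophages, and the median log2 difference was 0.07. The split between higher and lower depended on the scaling. With library totals, 3938 genes were higher and 6592 lower. On log2(TPM + 1), 3833 were higher and 6710 lower, on log2(FPKM + 1) 3927 and 6551, and after quantile normalisation 4147 and 6304. Counts of list members below are to be read against these shares. Setting CAR against control-CAR macrophages, 78.7% of the same genes passed, with 41.9% higher and 36.8% lower. For control-CAR macrophages against progenitor cells 84.1% passed, with 44.4% higher and 39.7% lower. The 3 comparisons share libraries, so their results are given side by side as values and were not correlated.

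**Figure D1:**
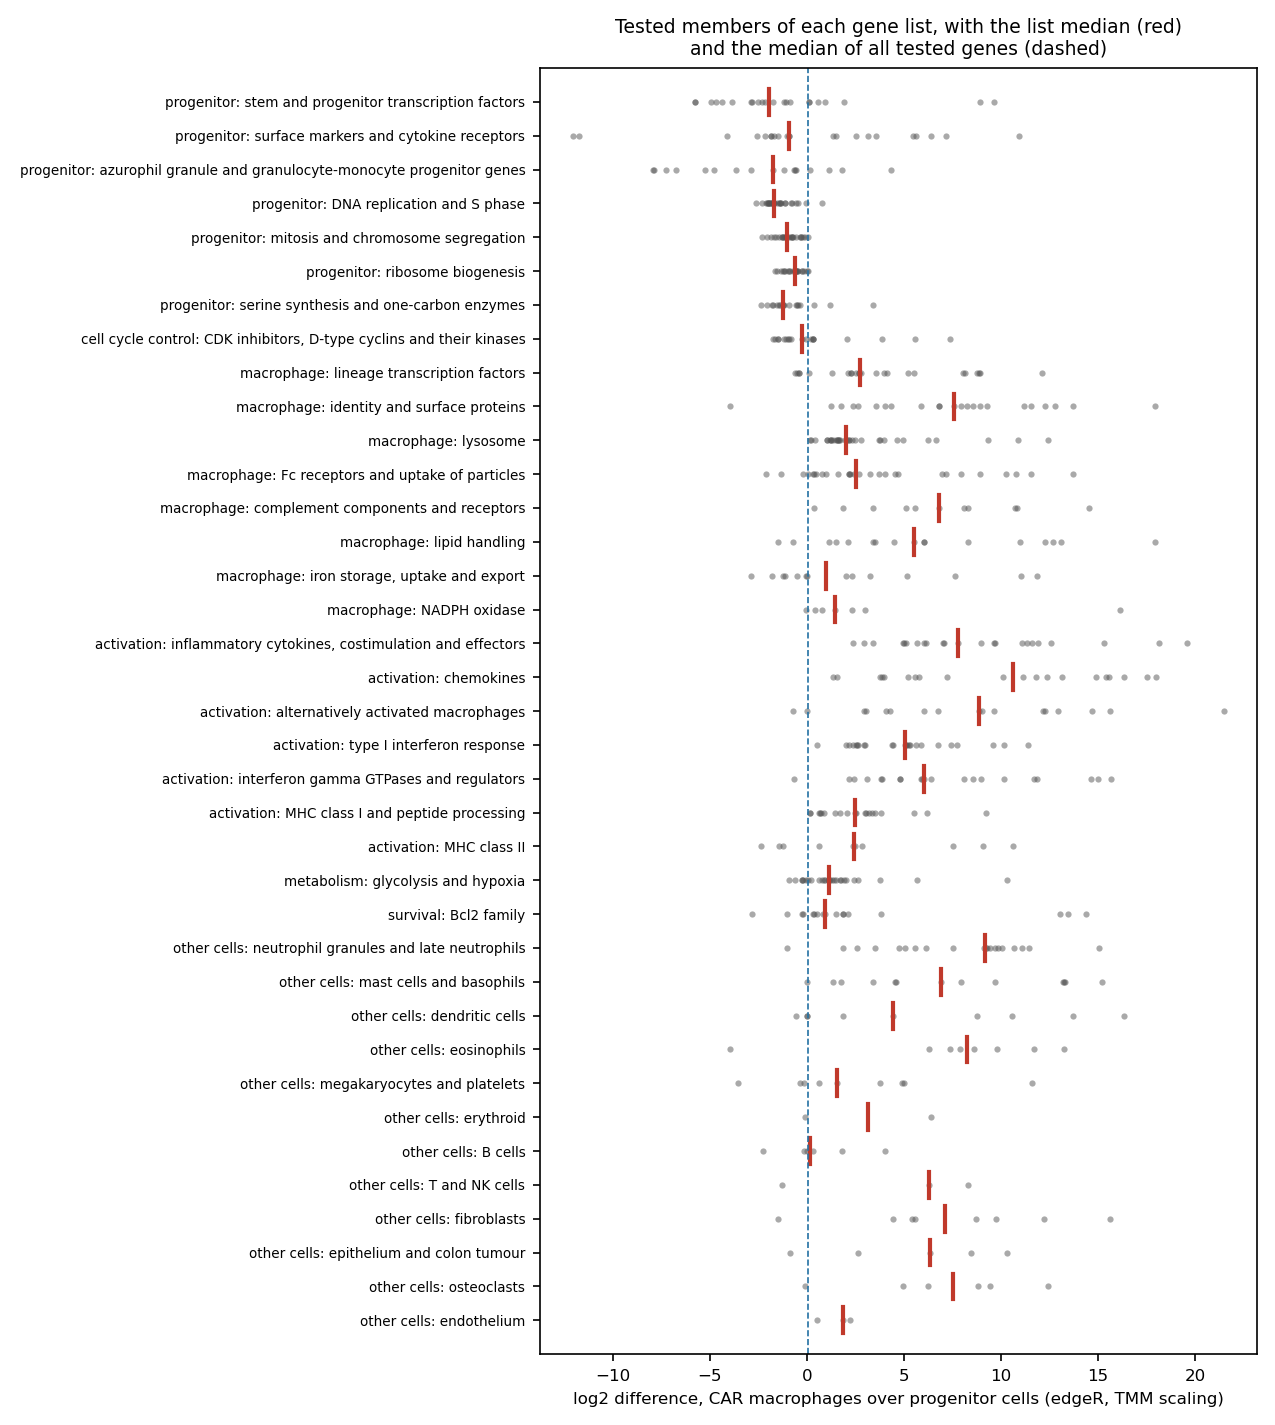
Log2 difference of CAR macrophages over progenitor cells (horizontal axis, edgeR with TMM scaling) for each tested member of the gene lists (grey points, 1 list per row), with the list median in red and the median of all tested genes as a dashed line. Progenitor and division lists lie left of the dashed line by their medians, down to -1.98 for stem and progenitor transcription factors, and the macrophage and activation lists lie right of it, from 0.99 for iron genes to 10.6 for chemokines. Fitted values of genes with 0 counts in one group depend on the prior count and are no measure of size.

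Hoxb8 and Esr1 were both lower in CAR macrophages than in progenitor cells. Hoxb8 stood at 8.65, 9.38 and 8.54 FPKM in CAR macrophages and 62, 60.8 and 62.8 FPKM in control-CAR macrophages, against 123, 122 and 121 FPKM in progenitor cells. Esr1, the oestrogen receptor gene whose hormone-binding part is often fused to Hoxb8 so that its activity can be switched, stood at 17.4, 17.6 and 16.3 FPKM in CAR macrophages and 158, 140.2 and 147 FPKM in control-CAR macrophages, against 329.7, 329 and 326 FPKM in progenitor cells. CAR libraries were the lowest of the 3 groups for both genes, with no overlap with either other group. The log2 difference from progenitor cells was -3.3 ± 0.060 (SE, edgeR adjusted p = 7.83e-18) for Hoxb8 and -3.6 ± 0.083 (SE, edgeR adjusted p = 7.27e-18) for Esr1. Against control-CAR macrophages it was -3.11 ± 0.060 (SE, edgeR adjusted p = 8.74e-17) for Hoxb8 and -3.28 ± 0.082 (SE, edgeR adjusted p = 1.22e-16) for Esr1. The labels do not say whether these cells carry such a fusion, and gene-level counts do not separate the cell's own transcripts from those of an introduced construct.

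Kit, Flt3 and Cd27, receptors of early myeloid progenitors, were low or absent in CAR macrophages, unlike Cd34, which is described further below. Kit, the stem cell factor receptor, stood at 5, 4.61 and 4.53 FPKM in the CAR macrophage libraries, against 115, 112 and 113 FPKM in the progenitor libraries. Flt3, the receptor of the FLT3 ligand, stood at 0, 0 and 0.02 FPKM in the CAR macrophage libraries, against 34.8, 35.8 and 37.8 FPKM in the progenitor libraries. Cd27, a co-stimulatory receptor of early progenitors, stood at 0 FPKM in every CAR macrophage library, against 34, 33.8 and 33.9 FPKM in the progenitor libraries. No CAR library came near a progenitor library for any of them. Kit fell by a log2 difference of -4.1 ± 0.1 (SE, edgeR adjusted p = 2.04e-17), and Cd27, without a count in any CAR library, was at least 187-fold lower when each CAR library is given a floor of 3 counts. Flt3 had 1 count over the 3 CAR libraries and 6384 over the progenitor libraries, for which no fold is given. In control-CAR macrophages Kit averaged 4.02 ± 0.327 FPKM, a log2 difference of -4.03 ± 0.1 (SE, edgeR adjusted p = 2.7e-17) from progenitor cells, and Flt3 averaged 0.0267 ± 0.00577 FPKM.

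Of 22 tested surface markers and cytokine receptors of progenitors, 12 fell and 10 rose, with a median of -0.95, against -0.31 in control-CAR macrophages. The fallers included Adgrg1 at -2.57, Spn at -1.83, Cd48 at -1.83 and Cd24a at -2.19. Csf3r, the receptor of the granulocyte growth factor G-CSF, stood at 5.19, 4.76 and 5.67 FPKM in the CAR macrophage libraries, against 13.7, 13.1 and 13.6 FPKM in the progenitor libraries, which is a log2 difference of -0.95 ± 0.064 (SE, edgeR adjusted p = 8.01e-11). The receptors of the GM-CSF and interleukin 3 family went the other way. Csf2rb, the shared beta chain of that family, stood at 687, 688 and 697 FPKM in the CAR macrophage libraries, against 86.1, 80.2 and 81 FPKM in the progenitor libraries, and rose by 3.55 ± 0.085 (SE, edgeR adjusted p = 1.2e-17). Csf2ra, the GM-CSF chain, rose by 3.12 ± 0.063 (SE, edgeR adjusted p = 1.22e-18), and Il3ra, the interleukin 3 chain, by 1.49 ± 0.062 (SE, edgeR adjusted p = 4.67e-14). Ly6a, which encodes the Sca-1 antigen of stem cells and is also interferon-inducible, stood at 143, 135 and 148 FPKM in CAR macrophages and 1.67, 1.46 and 1.38 FPKM in control-CAR macrophages, against 0.09, 0 and 0.18 FPKM in progenitor cells. It had 3 counts in all over the progenitor libraries, and BMDM averaged 145 ± 6.4 FPKM. Prom1 and Slamf1, further stem cell antigens, averaged 0.323 ± 0.0473 and 3.52 ± 0.521 FPKM in CAR macrophages.

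Most transcription factors of the progenitor state fell, while a few rose or did not pass the test. Myb, needed for progenitor growth, stood at 3.76, 3.11 and 3.18 FPKM in CAR macrophages and 0.88, 0.55 and 0.51 FPKM in control-CAR macrophages, against 257, 249 and 258 FPKM in progenitor cells. Gfi1, a repressor that favours the granulocyte line, stood at 0.91, 1 and 0.63 FPKM in the CAR macrophage libraries, against 63.2, 65.2 and 64.3 FPKM in the progenitor libraries. Meis1, a partner of Hox proteins, stood at 0.9, 0.83 and 0.83 FPKM in the CAR macrophage libraries, against 35.3, 40.8 and 37.3 FPKM in the progenitor libraries. Cebpa, which drives the step to granulocyte-monocyte progenitors, stood at 6.71, 6.24 and 7.09 FPKM in the CAR macrophage libraries, against 200.1, 199.5 and 192 FPKM in the progenitor libraries. Each of these genes was higher in every progenitor library than in any CAR library. The log2 differences were -5.76 ± 0.14 (SE, edgeR adjusted p = 1.63e-17) for Myb, -5.78 ± 0.16 (SE, edgeR adjusted p = 1.01e-16) for Gfi1, -4.95 ± 0.097 (SE, edgeR adjusted p = 6.66e-19) for Meis1 and -4.4 ± 0.073 (SE, edgeR adjusted p = 7.28e-20) for Cebpa. Lmo2, a bridging factor of stem cell complexes, fell by 4.7 ± 0.080 (SE, edgeR adjusted p = 9.94e-20), and Myc, a driver of growth, fell by 2.91 ± 0.060 (SE, edgeR adjusted p = 1.46e-18). In all, 15 of 22 tested factors fell and 5 rose, with a median of -1.98 in CAR macrophages and -1.77 in control-CAR macrophages, both against progenitor cells. The largest rises were at low levels, in Hoxa9 and Hoxa10, Hox genes of the stem cell state. Hoxa9 stood at 1.85, 2.05 and 2.09 FPKM in the CAR macrophage libraries, against 0 FPKM in every progenitor library, and Hoxa10 at 2.11, 1.93 and 1.31 FPKM in the CAR macrophage libraries, against 0 FPKM in every progenitor library. With 0 counts in every progenitor library, Hoxa9 was at least 46.1-fold and Hoxa10 at least 28.1-fold higher against the floor. Both also had 0 counts in the control-CAR libraries. Runx1, a core factor of blood formation, rose by 0.91 ± 0.045 (SE, edgeR adjusted p = 8.93e-13), with 21.6 ± 0.325 FPKM in CAR macrophages and 18.1 ± 0.348 FPKM in progenitor cells. The remaining risers were Gfi1b, a factor of the erythroid and megakaryocyte lines, at 1.92 and Cebpe, a factor of late granulocytes, at 0.59, both lower after quantile normalisation. Cebpe did not pass with library totals, FPKM or TPM. Library totals gave 4 rises and 17 falls for the whole list.

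Gata2 was the main exception among factors with high progenitor levels. Gata2, needed in stem cells and in mast cells, stood at 60.7, 59.1 and 61 FPKM in CAR macrophages and 10, 10.8 and 10.4 FPKM in control-CAR macrophages, against 78, 76.5 and 78.5 FPKM in progenitor cells. CAR libraries lay below the progenitor libraries and far above the control-CAR libraries in FPKM. Its TMM log2 difference from progenitor cells was 0.12 ± 0.056 (SE, edgeR adjusted p = 0.0546), which did not pass the test, while it was lower and passed when the scale was library totals, FPKM or TPM. Against control-CAR macrophages Gata2 rose by 2.22 ± 0.062 (SE, edgeR adjusted p = 5.22e-16).

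Defining granule genes of the granulocyte-monocyte progenitor were near 0 in CAR macrophages. Mpo, myeloperoxidase, stood at 0.6, 0.61 and 0.44 FPKM in the CAR macrophage libraries, against 132, 113 and 111 FPKM in the progenitor libraries. Elane, neutrophil elastase, stood at 0.27, 0.53 and 0.45 FPKM in the CAR macrophage libraries, against 66.9, 71.6 and 57.7 FPKM in the progenitor libraries. Ms4a3, a marker of committed granulocyte-monocyte progenitors, stood at 1.92, 2.33 and 1.8 FPKM in the CAR macrophage libraries, against 690.2, 686 and 675 FPKM in the progenitor libraries. No CAR library reached 3 FPKM for any of them, and all progenitor libraries were far above that. The log2 differences were -7.27 ± 0.17 (SE, edgeR adjusted p = 7.63e-18) for Mpo, -6.76 ± 0.35 (SE, edgeR adjusted p = 1.41e-12) for Elane, -7.91 ± 0.17 (SE, edgeR adjusted p = 3.09e-18) for Ms4a3 and -4.77 ± 0.2 (SE, edgeR adjusted p = 3.93e-14) for Prtn3, the proteinase 3 gene. The median tested member of the list stood at 21.2% of its progenitor FPKM in CAR macrophages and 4.04% in control-CAR macrophages. In control-CAR macrophages 11 of the 17 tested members fell and 5 rose, with a median of -3.84. In CAR macrophages 13 fell and 4 rose, with a median of -1.76. The risers were Srgn, the proteoglycan core on which granule proteins are packed, Cd63, a granule and lysosome membrane protein, Hp, haptoglobin, and Anxa3, an annexin. Srgn rose by 1.8 ± 0.070 (SE, edgeR adjusted p = 1.94e-14) and Cd63 by 1.15 ± 0.059 (SE, edgeR adjusted p = 1.33e-12). The rise of Anxa3 was 0.17 under TMM and turned to a fall when scaled by library totals, FPKM or TPM.

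Ctsg and Cd34 were lower than in progenitor cells but well above the level of control-CAR macrophages. Ctsg, the granule protease cathepsin G, stood at 114, 108 and 116 FPKM in CAR macrophages and 3.13, 2.02 and 3.21 FPKM in control-CAR macrophages, against 1970.5, 1991 and 1968 FPKM in progenitor cells. Cd34, a sialomucin of stem and progenitor cells, stood at 39.8, 38.7 and 43.8 FPKM in CAR macrophages and 1.78, 1.89 and 2.09 FPKM in control-CAR macrophages, against 107, 112 and 111 FPKM in progenitor cells. For both the 3 groups formed 3 separate ranges, with CAR macrophages in the middle. CAR macrophages held 37.1% of the progenitor FPKM for Cd34 and 5.7% for Ctsg, against 1.75% and 0.141% in control-CAR macrophages. Against control-CAR macrophages the log2 differences were 4.11 ± 0.1 (SE, edgeR adjusted p = 8e-17) for Cd34 and 5.04 ± 0.16 (SE, edgeR adjusted p = 2.97e-15) for Ctsg. Itga2b, the integrin chain CD41 of megakaryocytes and some progenitors, followed the same order at 49, 48.9 and 50.8 FPKM in CAR macrophages and 3.25, 2.2 and 2.27 FPKM in control-CAR macrophages, against 91.1, 92.2 and 87.5 FPKM in progenitor cells, with a log2 difference of -0.38 ± 0.077 (SE, edgeR adjusted p = 0.000177) from progenitor cells.

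A mast cell and basophil group of genes was high in the same libraries. Cpa3, a carboxypeptidase of mast cell granules that early progenitors also express, stood at 2149, 2179.9 and 2334 FPKM in CAR macrophages and 35.5, 21.9 and 27.2 FPKM in control-CAR macrophages, against 1348, 1239 and 1265 FPKM in progenitor cells. Tpsb2, a mast cell tryptase, stood at 324, 325 and 339.5 FPKM in CAR macrophages and 6.85, 3.64 and 4.24 FPKM in control-CAR macrophages, against 0 FPKM in every progenitor library. Fcer1a, the IgE-binding chain of the high-affinity IgE receptor, stood at 97.3, 94.9 and 99.8 FPKM in CAR macrophages and 0.08, 0 and 0 FPKM in control-CAR macrophages, against 0 FPKM in every progenitor library. CAR libraries were the highest of the 3 groups for all of them. Cpa3 rose by 1.33 ± 0.11 (SE, edgeR adjusted p = 2.5e-09) over progenitor cells, Tpsb2 was at least 2170-fold and Fcer1a at least 572-fold higher. Cma1, a mast cell chymase, was at least 579-fold higher at 90.2 ± 3.34 FPKM, and Tph1, the first enzyme of serotonin synthesis, at least 548-fold at 52.8 ± 2.03 FPKM. Mcpt8, the basophil protease, stood at 219, 222 and 226 FPKM in CAR macrophages and 15.9, 12.5 and 14.3 FPKM in control-CAR macrophages, against 29.2, 29.6 and 25.9 FPKM in progenitor cells, a log2 difference of 3.39 ± 0.13 (SE, edgeR adjusted p = 1e-14) from progenitor cells. Of 13 tested members 12 rose and none fell, with a median of 6.89, and all 13 were higher than in control-CAR macrophages. The summed FPKM of the list was 4009 to 4248 in CAR libraries, 457 to 493 in control-CAR libraries and 1577 to 1695 in progenitor libraries, mostly from Cpa3 and Hdc. Cd34, Gata2 and Cpa3 belong both to progenitors and to mast cells, and the part of mast cells or basophils in their CAR levels was not tested. Kit, which defines mast cells as well, was at 4.71 ± 0.251 FPKM in CAR macrophages. Prg2, the major basic protein of eosinophils, stood at 864 ± 22 FPKM in CAR macrophages and 0.11 ± 0 FPKM in progenitor cells, with 3 counts over the progenitor libraries, and Siglecf, a surface marker of eosinophils, fell by 3.96 ± 0.1 (SE, edgeR adjusted p = 3.14e-17). Of 8 tested eosinophil genes 7 rose and Siglecf alone fell, with the same counts of 7 higher and 1 lower against control-CAR macrophages. Their summed FPKM was 887 to 928 in CAR libraries, 149 to 236 in control-CAR libraries and 71.4 to 76 in progenitor libraries, and the part of such cells was not tested.

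**Figure D2:**
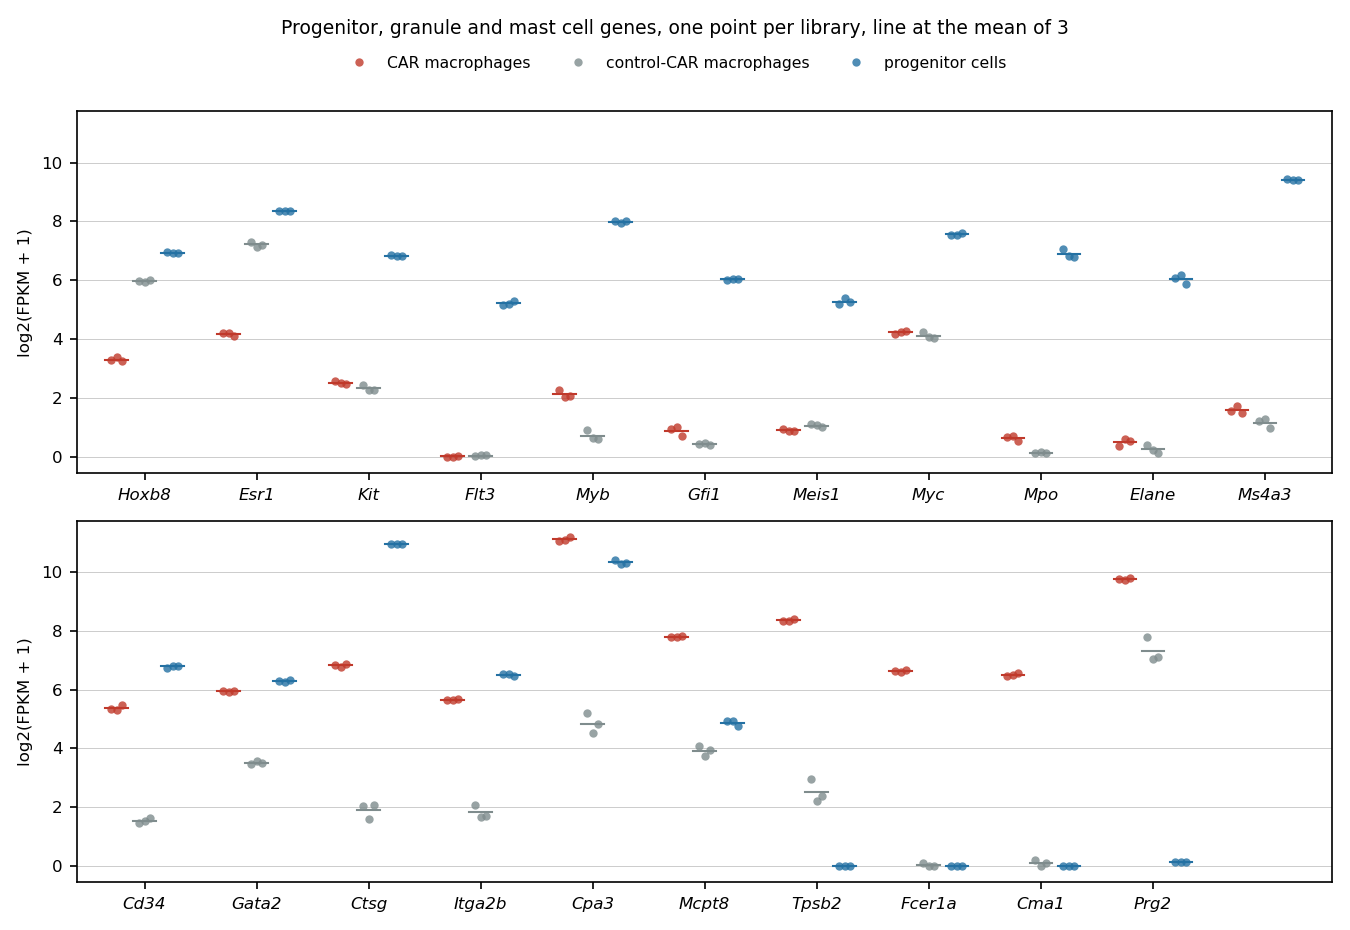
Level of progenitor, granule and mast cell genes on the log2(FPKM + 1) scale, with 1 point per library and a line at the mean of 3, in CAR macrophages (red), control-CAR macrophages (grey) and progenitor cells (blue). Kit, Flt3, Mpo, Elane and Ms4a3 are low in CAR and control-CAR macrophages, while for Cd34, Gata2, Ctsg, Itga2b and Cpa3 the CAR points lie far above the control-CAR points.

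Most division genes were lower in CAR macrophages than in progenitor cells and higher than in control-CAR macrophages. Of 29 tested genes of DNA replication and S phase 27 fell and 1 rose, with a median of -1.7, and the median member stood at 22% of its progenitor FPKM. In control-CAR macrophages all 29 fell, with a median of -4.42 and a median level of 2.69% of the progenitor FPKM. All 29 were higher in CAR than in control-CAR macrophages. The riser was Ccne1, the E-type cyclin of S phase entry, at 18.8, 17.8 and 18 FPKM in CAR macrophages and 3.35, 4.88 and 4.6 FPKM in control-CAR macrophages, against 15.1, 15.4 and 14.6 FPKM in progenitor cells, a log2 difference of 0.76 ± 0.1 (SE, edgeR adjusted p = 1.27e-06). For mitosis and chromosome segregation, 23 of 25 fell in CAR macrophages, none rose, and the median was -1.06, with a median level of 34.3% of the progenitor FPKM, against 25 of 25 and a median of -5.36 in control-CAR macrophages, with a median level of 1.41%. All 25 were higher in CAR than in control-CAR macrophages. BMDM also expressed these genes, with a median of 10.9 FPKM over the S phase list and 13.3 FPKM over the mitosis list, beside 18.8 and 17.4 FPKM in CAR macrophages.

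Mcm7, a subunit of the replicative helicase, stood at 51.1, 51 and 49 FPKM in CAR macrophages and 1.84, 1.29 and 1.85 FPKM in control-CAR macrophages, against 267, 269 and 268 FPKM in progenitor cells. Rrm2, the regulated subunit of the enzyme that makes deoxynucleotides, stood at 63.8, 62.5 and 65.8 FPKM in CAR macrophages and 0.32, 0.5 and 0.57 FPKM in control-CAR macrophages, against 127, 121 and 127 FPKM in progenitor cells. Cdc20, which activates the anaphase-promoting complex, stood at 47.1, 45.1 and 50.6 FPKM in CAR macrophages and 0.2, 0.53 and 0.34 FPKM in control-CAR macrophages, against 97.5, 99.8 and 103 FPKM in progenitor cells. Mki67, the gene of the Ki-67 proliferation antigen, stood at 23.8, 24 and 23.5 FPKM in CAR macrophages and 5.99, 6.16 and 6.44 FPKM in control-CAR macrophages, against 81.8, 77.3 and 78.9 FPKM in progenitor cells. For all of these genes each CAR library lay between the control-CAR and the progenitor libraries without overlap. Against progenitor cells the log2 differences were -1.92 ± 0.063 (SE, edgeR adjusted p = 1.23e-15) for Mcm7, -0.48 ± 0.069 (SE, edgeR adjusted p = 3.41e-06) for Rrm2, -0.59 ± 0.070 (SE, edgeR adjusted p = 2.8e-07) for Cdc20 and -1.27 ± 0.12 (SE, edgeR adjusted p = 6.32e-09) for Mki67. Against control-CAR macrophages they were 4.61 ± 0.091 (SE, edgeR adjusted p = 4.94e-18), 6.79 ± 0.13 (SE, edgeR adjusted p = 3.44e-18), 6.73 ± 0.14 (SE, edgeR adjusted p = 1.07e-17) and 1.64 ± 0.12 (SE, edgeR adjusted p = 5.7e-10) in the same order of genes. The log2 difference was -2.62 for Mcm6, another helicase subunit, -2.32 for Rfc4, a clamp loader subunit, and -2.12 for Gins1, which helps the helicase start. Among mitotic genes Ccnb2, a B-type cyclin, fell furthest, at -2.31 ± 0.070 (SE, edgeR adjusted p = 3.7e-16). Kif23, a motor of cytokinesis, at 0.02 ± 0.061 (SE, edgeR adjusted p = 0.723), and Cenpe, a centromere motor, at -0.13 ± 0.13 (SE, edgeR adjusted p = 0.349), did not pass. With library totals all 25 mitotic genes were lower, Kif23 and Cenpe included.

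**Figure D3:**
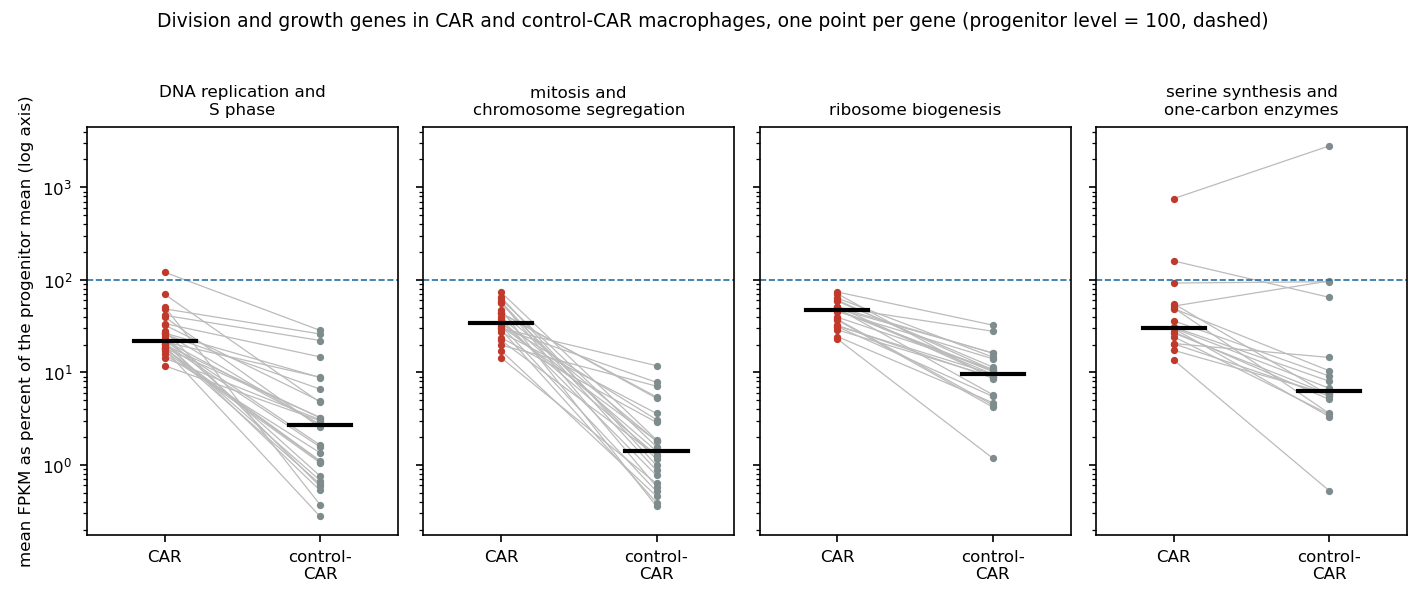
Mean FPKM of each tested gene of 4 growth and division lists as a percent of its progenitor mean (vertical log axis, dashed line at 100), in CAR macrophages (left, red) and control-CAR macrophages (right, grey), with a line joining each gene and a bar at the median. Median S phase genes stood at 22% in CAR and 2.69% in control-CAR macrophages, and median mitotic genes at 34.3% and 1.41%.

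E2F factors bind promoters of S phase genes, and the CCAAT box is common in promoters of mitotic genes. The promoters of 3 of these genes are shown because both lists moved together. The sequences are RefSeq windows of build GRCm38.p6, 250 bases before the annotated start and on the gene's strand. Capitals mark an E2F element in Mcm5 and Mcm7 (TTTCCCGC, TTTCGCGC, TTTGCCGC or TTTGGCGC on either strand, where the 2 matches in Mcm5 overlap) and the CCAAT box in Cdc20 (CCAAT on either strand). Mcm5 is at chr8:75109259-75109508, plus strand, Mcm7 at chr5:138171884-138172133, minus strand and Cdc20 at chr4:118437344-118437593, minus strand.
Mcm5: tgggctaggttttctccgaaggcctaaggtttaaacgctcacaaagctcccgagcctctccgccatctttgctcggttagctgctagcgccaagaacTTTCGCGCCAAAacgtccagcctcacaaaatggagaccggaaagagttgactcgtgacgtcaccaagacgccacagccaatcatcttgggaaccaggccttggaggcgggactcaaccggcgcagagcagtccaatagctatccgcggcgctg
Mcm7: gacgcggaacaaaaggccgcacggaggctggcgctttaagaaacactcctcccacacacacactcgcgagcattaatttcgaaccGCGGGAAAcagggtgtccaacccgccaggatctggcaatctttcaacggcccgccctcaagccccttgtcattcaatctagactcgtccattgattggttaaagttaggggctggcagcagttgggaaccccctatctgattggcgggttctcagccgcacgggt
Cdc20: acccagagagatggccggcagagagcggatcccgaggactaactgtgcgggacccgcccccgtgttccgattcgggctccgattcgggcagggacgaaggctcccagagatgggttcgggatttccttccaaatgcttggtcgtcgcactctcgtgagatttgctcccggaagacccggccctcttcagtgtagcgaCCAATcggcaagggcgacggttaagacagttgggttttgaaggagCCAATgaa
An E2F element was found in 6 of 23 S phase genes with a window in the table (26.1%), against 4.03% of 9535 tested genes with one. CCAAT was found in 18 of 21 mitotic genes (85.7%), against 41% of all, and an E2F element in 1 of the 21 mitotic genes (4.76%). A match describes the letters in the window and no more. Mcm5 stood at 28 ± 0.85 FPKM in CAR macrophages, 0.93 ± 0.114 FPKM in control-CAR macrophages and 137 ± 6.68 FPKM in progenitor cells.

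Genes of ribosome biogenesis and most serine and one-carbon enzymes were also lower than in progenitor cells. Of 23 tested ribosome biogenesis genes 21 fell and none rose, with a median of -0.61, against 23 falls and a median of -2.59 in control-CAR macrophages, and all 23 were higher in CAR than in control-CAR macrophages. Dkc1, the pseudouridine synthase of ribosomal RNA and telomerase, fell furthest at -1.65 ± 0.072 (SE, edgeR adjusted p = 1.01e-13), with 22.6 ± 1.58 FPKM in CAR macrophages, 1.16 ± 0.175 FPKM in control-CAR macrophages and 98.4 ± 1.05 FPKM in progenitor cells. Fbl, the ribosomal RNA methyltransferase fibrillarin, fell by 1.32 ± 0.059 (SE, edgeR adjusted p = 1.56e-13), and Polr1b, a subunit of RNA polymerase I, fell by 1.56 ± 0.092 (SE, edgeR adjusted p = 1.17e-11). Of 18 serine and one-carbon enzymes 15 fell and 3 rose, with a median of -1.23, against -3.21 in control-CAR macrophages. Phgdh, the first enzyme of serine synthesis, stood at 149.7, 148 and 154 FPKM in CAR macrophages and 18.2, 13.1 and 15.1 FPKM in control-CAR macrophages, against 265, 289 and 266 FPKM in progenitor cells. Its log2 difference from progenitor cells was -0.37 ± 0.12 (SE, edgeR adjusted p = 0.00626), and from control-CAR macrophages 2.99 ± 0.13 (SE, edgeR adjusted p = 4.05e-13). Shmt1, a serine hydroxymethyltransferase, fell by 2.4 ± 0.077 (SE, edgeR adjusted p = 1.06e-15). The risers included the folate enzymes Aldh1l2 at 3.4 and Mthfd2 at 0.37, of which Mthfd2 turned below 0 when scaled by library totals, FPKM or TPM, without passing. Aldh1l2 averaged 3.22 ± 0.0702 FPKM in CAR macrophages and 0.427 ± 0.0603 FPKM in progenitor cells.

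Cell cycle control genes were mixed, with a median of -0.25, 8 of 19 tested members higher and 10 lower under TMM, and 4 higher and 14 lower with library totals. Ccnd1, the D-type cyclin that answers to growth factors, stood at 47.8, 46.1 and 49.4 FPKM in CAR macrophages and 0, 0.03 and 0.03 FPKM in control-CAR macrophages, against 0.38, 0.32 and 0.51 FPKM in progenitor cells. CAR libraries were the only ones of these 3 groups above 1 FPKM for it, and the log2 difference from progenitor cells was 7.38 ± 0.14 (SE, edgeR adjusted p = 5.49e-19). Cdkn1a, the CDK inhibitor p21, stood at 383, 384 and 399 FPKM in CAR macrophages and 765, 778 and 776 FPKM in control-CAR macrophages, against 35.3, 37 and 39.4 FPKM in progenitor cells, and rose by 3.87 ± 0.065 (SE, edgeR adjusted p = 8.67e-20). Its log2 difference from control-CAR macrophages was -1.3 ± 0.057 (SE, edgeR adjusted p = 3.04e-13). Cdkn2a, which encodes p16 and p19 ARF, rose by 2.08 ± 0.071 (SE, edgeR adjusted p = 2.57e-15), and Cdkn2b, which encodes p15, by 5.54 ± 0.12 (SE, edgeR adjusted p = 1.7e-18).

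Most macrophage identity genes were higher in CAR macrophages than in progenitor cells, where Adgre1 and Csf1r were under 1 FPKM. Adgre1, the F4/80 antigen, stood at 802, 809.7 and 822 FPKM in the CAR macrophage libraries, against 0.41, 0.53 and 0.53 FPKM in the progenitor libraries. Cd68, a lysosomal glycoprotein used as a macrophage marker, stood at 718, 729 and 767 FPKM in the CAR macrophage libraries, against 18.6, 17.8 and 16.1 FPKM in the progenitor libraries. Itgam, the integrin chain CD11b, stood at 202, 199 and 198 FPKM in the CAR macrophage libraries, against 14.5, 14 and 13.9 FPKM in the progenitor libraries. Csf1r, the receptor on which most macrophages depend, stood at 109, 108 and 110.0 FPKM in the CAR macrophage libraries, against 0.53, 0.5 and 0.46 FPKM in the progenitor libraries. The groups did not overlap for any of them. The log2 differences were 11.17 ± 0.17 (SE, edgeR adjusted p = 2.76e-20) for Adgre1, 5.88 ± 0.14 (SE, edgeR adjusted p = 1.15e-17) for Cd68, 4.3 ± 0.090 (SE, edgeR adjusted p = 1.67e-18) for Itgam and 8.25 ± 0.12 (SE, edgeR adjusted p = 1.91e-20) for Csf1r. Of 23 tested identity genes 22 rose and 1 fell, with a median of 7.59, or 5.88 when the 6 genes with 0 counts in progenitor cells are put at their lower bound. CAR macrophages were higher than control-CAR macrophages for 8 identity genes and lower for 12. Cd14, the lipopolysaccharide co-receptor, rose by 7.59 ± 0.098 (SE, edgeR adjusted p = 4.57e-21), and Sirpa, the receptor for CD47, by 3.55 ± 0.074 (SE, edgeR adjusted p = 1.81e-18). Gpnmb, a glycoprotein of lipid-loaded and phagocytic macrophages, stood at 1466, 1446 and 1524 FPKM in CAR macrophages and 23, 29.6 and 26.9 FPKM in control-CAR macrophages, against 0.02, 0 and 0 FPKM in progenitor cells, with 1 count over the progenitor libraries. It was 5.49 on the log2 scale above control-CAR macrophages. Trem2, a lipid-sensing receptor, stood at 126, 131 and 129 FPKM in CAR macrophages and 242, 287 and 263 FPKM in control-CAR macrophages, against 0, 0.07 and 0 FPKM in progenitor cells, also with 1 count over the progenitor libraries.

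Ccr2, the receptor that draws monocytes to inflamed tissue, was the one identity gene that fell. Ccr2 stood at 14.3, 14.7 and 14 FPKM in CAR macrophages and 1.41, 0.67 and 0.84 FPKM in control-CAR macrophages, against 329.6, 302 and 324 FPKM in progenitor cells. All CAR libraries lay far below the progenitor libraries and above the control-CAR libraries. The log2 difference was -3.98 ± 0.14 (SE, edgeR adjusted p = 3.58e-15) from progenitor cells and 3.57 ± 0.19 (SE, edgeR adjusted p = 5.02e-12) from control-CAR macrophages.

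Several macrophage features stayed weak. Lyz2, lysozyme M, rose over progenitor cells by 2.38 ± 0.072 (SE, edgeR adjusted p = 3.97e-16) but stood at 609, 619 and 608 FPKM in CAR macrophages and 4828, 5139 and 5114 FPKM in control-CAR macrophages, against 168, 171 and 155 FPKM in progenitor cells. Marco, a scavenger receptor, stood at 13.9, 12.5 and 12.6 FPKM in CAR macrophages and 268, 359.9 and 346 FPKM in control-CAR macrophages, against 0 FPKM in every progenitor library. Arg1, arginase 1, stood at 4.18, 4.92 and 5.33 FPKM in CAR macrophages and 1498, 1492 and 1506 FPKM in control-CAR macrophages, against 0 FPKM in every progenitor library. For each of these genes CAR libraries were above the progenitor libraries and far below the control-CAR libraries, with log2 differences from control-CAR macrophages of -3.34 ± 0.073 (SE, edgeR adjusted p = 1.97e-17) for Lyz2, -4.95 ± 0.17 (SE, edgeR adjusted p = 1.24e-13) for Marco and -8.58 ± 0.21 (SE, edgeR adjusted p = 1.19e-15) for Arg1. Mertk, a receptor for dying cells, averaged 0.423 ± 0.0808 FPKM, Mrc1, the mannose receptor, 0.303 ± 0.0416 FPKM and Pparg, a lipid-sensing nuclear receptor, 0.163 ± 0.0839 FPKM in CAR macrophages, all under 1 FPKM. Fcgr1, the high-affinity IgG receptor, stood at 3.15 ± 0.246 FPKM in CAR macrophages, 9.9 ± 0.605 FPKM in control-CAR macrophages and 0.273 ± 0.117 FPKM in progenitor cells. BMDM averaged 4.15 ± 0.454 FPKM for Mertk and 5.5 ± 1.51 FPKM for Mrc1.

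Of 24 tested macrophage transcription factors 19 rose and 3 fell, with a median of 2.74, or 2.68 with 3 genes of 0 progenitor counts at their lower bound. In control-CAR macrophages 23 of the 24 rose over progenitor cells, with a median of 4.05. CAR macrophages were higher than control-CAR macrophages for 5 of these factors and lower for 15. Cebpb, which drives inflammatory and emergency myeloid genes, stood at 290.4, 395 and 411 FPKM in the CAR macrophage libraries, against 32.7, 33.9 and 32.7 FPKM in the progenitor libraries, a log2 difference of 3.95 ± 0.12 (SE, edgeR adjusted p = 2.58e-16). Irf8, needed for the monocyte line, rose by 2.27 ± 0.11 (SE, edgeR adjusted p = 5.04e-13) at 8.18 ± 0.27 FPKM in CAR macrophages, 30.4 ± 1.85 FPKM in control-CAR macrophages and 2.37 ± 0.224 FPKM in progenitor cells. Id2, an inhibitor of helix-loop-helix factors, rose by 8.04 ± 0.11 (SE, edgeR adjusted p = 8.82e-21), and Klf6, a zinc finger factor of inflammatory macrophages, by 5.51 ± 0.091 (SE, edgeR adjusted p = 7.28e-20). Klf4, a factor of monocytes, stood at 31.9, 33.2 and 32.5 FPKM in CAR macrophages and 0.26, 0.26 and 0.25 FPKM in control-CAR macrophages, against 0.02, 0 and 0 FPKM in progenitor cells. It had 1 count over the progenitor libraries, and in CAR macrophages it exceeded control-CAR macrophages by 6.67 ± 0.13 (SE, edgeR adjusted p = 6.16e-18). Spi1, which encodes the PU.1 factor of the whole myeloid line, stood at 97, 101 and 103 FPKM in the CAR macrophage libraries, against 130.2, 136 and 124 FPKM in the progenitor libraries, and did not pass under TMM at 0.11 ± 0.068 (SE, edgeR adjusted p = 0.15). It was lower and passed with library totals, FPKM and TPM. The fallers were Cebpd at -0.61, Runx3 at -0.41 and Tfeb, a lysosome regulator, at -0.42.

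**Figure D4:**
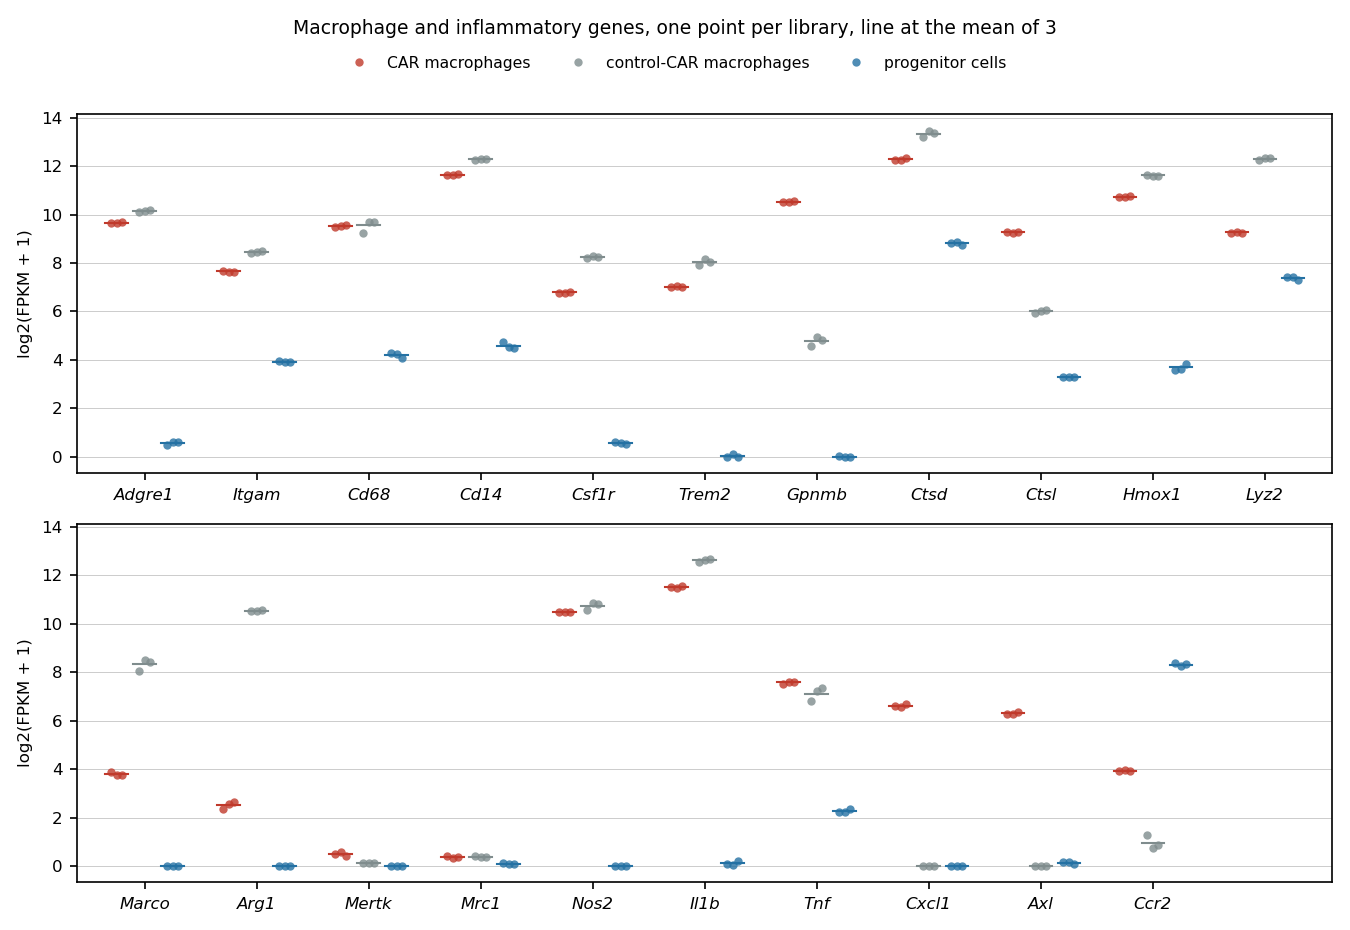
Level of macrophage and inflammatory genes on the log2(FPKM + 1) scale, with 1 point per library and a line at the mean of 3, in CAR macrophages (red), control-CAR macrophages (grey) and progenitor cells (blue). Adgre1, Itgam, Cd68 and Cd14 are high in both macrophage groups, Marco and Arg1 are high in control-CAR macrophages, and Gpnmb, Ctsl, Cxcl1 and Axl are highest in CAR macrophages.

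Every tested lysosomal gene rose, 32 of 32, with a median of 2.0. Under library totals 29 rose and 2 fell. Against control-CAR macrophages 9 were higher and 16 lower. Ctsd, the aspartic protease cathepsin D, stood at 4882, 4933 and 5089.8 FPKM in the CAR macrophage libraries, against 447, 462 and 433 FPKM in the progenitor libraries. Ctsl, the cysteine protease cathepsin L, stood at 623, 609.8 and 627 FPKM in CAR macrophages and 60.7, 64.3 and 66.5 FPKM in control-CAR macrophages, against 8.75, 8.67 and 8.77 FPKM in progenitor cells. Ctss, the cathepsin that trims the class II invariant chain, stood at 429, 428 and 459.6 FPKM in the CAR macrophage libraries, against 0.33, 0.16 and 0.61 FPKM in the progenitor libraries. All were higher in each CAR library than in any progenitor library. The log2 differences were 3.96 ± 0.097 (SE, edgeR adjusted p = 1.66e-17) for Ctsd, 6.64 ± 0.1 (SE, edgeR adjusted p = 3.69e-20) for Ctsl and 10.85 ± 0.14 (SE, edgeR adjusted p = 3.36e-21) for Ctss. Psap, the precursor of saposins, rose by 4.64 ± 0.084 (SE, edgeR adjusted p = 2.27e-19), and Lamp1, a lysosomal membrane protein, by 2.14 ± 0.066 (SE, edgeR adjusted p = 5.03e-16). Atp6v0d2, a proton pump subunit of macrophages and osteoclasts, was at least 322-fold higher at 17.7 ± 0.764 FPKM. The promoter of Ctsd is given because it holds the letters of the CLEAR E-box, known as a site of MiT/TFE factors in lysosomal genes (TCACGTGA, its own reverse complement, in capitals), at chr7:142387828-142388077, minus strand.
Ctsd: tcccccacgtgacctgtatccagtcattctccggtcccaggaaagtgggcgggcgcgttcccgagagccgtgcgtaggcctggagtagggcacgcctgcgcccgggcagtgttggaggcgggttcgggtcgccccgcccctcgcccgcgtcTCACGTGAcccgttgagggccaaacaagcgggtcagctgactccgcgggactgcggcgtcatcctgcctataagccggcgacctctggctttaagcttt
This element was found in 5 of 25 lysosomal genes with a window (20%), against 1.82% of all tested genes with one.

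Uptake genes rose in 24 of 28 tested genes and fell in 3, with a median of 2.53. Against control-CAR macrophages 7 were higher and 18 lower. Lrp1, a large receptor for ligands and dying cells, stood at 90.2, 90.2 and 83.2 FPKM in the CAR macrophage libraries, against 0.08, 0.06 and 0.07 FPKM in the progenitor libraries, a log2 difference of 10.74 ± 0.16 (SE, edgeR adjusted p = 2.77e-20). Axl, a receptor tyrosine kinase for dying cells, stood at 76.5, 77.7 and 80.3 FPKM in CAR macrophages and 0 FPKM in every control-CAR macrophage library, against 0.11, 0.11 and 0.06 FPKM in progenitor cells. The CAR libraries were the only ones of these groups above 1 FPKM. Axl rose by 10.25 ± 0.11 (SE, edgeR adjusted p = 1.4e-20) over progenitor cells and was at least 1440-fold higher than in control-CAR macrophages, where it had 0 counts. Syk, the kinase behind Fc receptors, rose by 2.4 ± 0.062 (SE, edgeR adjusted p = 3.98e-17), and the shared signalling chains Fcer1g and Tyrobp by 2.14 and 2.14. The fallers were Dock2 at -1.33 and Elmo1 at -2.13, which act together on the Rac switch, and Itgb5 at -0.23.

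Of 11 tested complement genes 9 rose and none fell, with a median of 6.81. Against control-CAR macrophages 2 were higher, 4 were lower and 5 did not pass. C3, the central component, stood at 624, 625 and 608 FPKM in the CAR macrophage libraries, against 2.87, 2.5 and 2.9 FPKM in the progenitor libraries, a log2 difference of 8.31 ± 0.1 (SE, edgeR adjusted p = 3.38e-21), and Cfb, factor B, was at least 1400-fold higher at 70.2 ± 0.289 FPKM. C1qb and C1qc, parts of the C1q recognition molecule, averaged 0.41 ± 0.176 and 0.32 ± 0.0781 FPKM in CAR macrophages, against 63.1 ± 14.6 and 50.7 ± 13 FPKM in BMDM. Of 17 lipid handling genes 14 rose and 2 fell, with a median of 5.53. Lgals3, galectin 3, stood at 1096, 1106 and 1169 FPKM in CAR macrophages and 229, 205 and 228 FPKM in control-CAR macrophages, against 0.16, 0.26 and 0.11 FPKM in progenitor cells, and rose by 13.06 ± 0.19 (SE, edgeR adjusted p = 1.58e-20). Lpl, lipoprotein lipase, was at least 382-fold higher. Plin2, a coat protein of lipid droplets, rose by 3.41 ± 0.090 (SE, edgeR adjusted p = 5.43e-17) and exceeded control-CAR macrophages by 1.41 ± 0.083 (SE, edgeR adjusted p = 1.95e-11). Apoe, the lipid carrier apolipoprotein E, fell by 1.51 ± 0.14 (SE, edgeR adjusted p = 5.87e-09), at 2.76 ± 0.494 FPKM in CAR macrophages and 10.7 ± 0.879 FPKM in progenitor cells, and Fabp5, a fatty acid carrier, fell by 0.72 ± 0.090 (SE, edgeR adjusted p = 5.7e-07).

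Genes of iron storage and haem breakdown were higher, and the main iron uptake receptor was lower. Fth1, the ferritin heavy chain, stood at 30889.9, 30649.6 and 30305 FPKM in the CAR macrophage libraries, against 1119, 1226 and 1299 FPKM in the progenitor libraries, a log2 difference of 5.14 ± 0.087 (SE, edgeR adjusted p = 9.3e-20). Hmox1, haem oxygenase 1, stood at 1684, 1693 and 1723 FPKM in the CAR macrophage libraries, against 11.1, 11.3 and 13.3 FPKM in the progenitor libraries, a difference of 7.64 ± 0.088 (SE, edgeR adjusted p = 1.57e-21). Tfrc, the transferrin receptor, stood at 33.5, 33.1 and 33.6 FPKM in CAR macrophages and 19.1, 16.2 and 18 FPKM in control-CAR macrophages, against 103, 97.8 and 105 FPKM in progenitor cells, and fell by 1.12 ± 0.061 (SE, edgeR adjusted p = 3.18e-12). Fth1 and Hmox1 were higher, and Tfrc lower, in every CAR library than in any progenitor library. Slc11a1, the phagosomal metal transporter, rose by 11.84 ± 0.16 (SE, edgeR adjusted p = 8.4e-21), and Slc40a1, the iron exporter ferroportin, was at least 123-fold higher at 4.86 ± 0.154 FPKM. In all 7 of 14 iron genes rose and 5 fell, or 7 and 7 with library totals. CAR macrophages were higher than control-CAR macrophages for 3 iron genes and lower for 9. Steap3, the iron reductase of endosomes, was at -2.89, Hfe, a regulator of iron uptake, at -1.79, Ncoa4, the receptor that takes ferritin to lysosomes, at -1.24 and Ireb2, an iron sensor, at -0.52. Cybb, the catalytic subunit of the phagocyte NADPH oxidase, stood at 113, 114 and 113 FPKM in CAR macrophages and 193, 221 and 224 FPKM in control-CAR macrophages, against 0 FPKM in every progenitor library, at least 4150-fold higher than in progenitor cells, and 6 of 7 oxidase genes rose. All 7 oxidase genes were lower in CAR than in control-CAR macrophages.

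Inflammatory genes were switched on. All 23 tested cytokine, costimulation and effector genes rose, with a median of 7.78, or 7.25 with 5 genes at their lower bound. Nos2, the inducible nitric oxide synthase, stood at 1447, 1449 and 1435 FPKM in the CAR macrophage libraries, against 0 FPKM in every progenitor library, at least 45900-fold higher. Il1b, the interleukin 1 beta gene, stood at 2916, 2826 and 3029 FPKM in the CAR macrophage libraries, against 0.06, 0.03 and 0.16 FPKM in the progenitor libraries, a log2 difference of 15.32 ± 0.15 (SE, edgeR adjusted p = 7.8e-22). Tnf stood at 184, 194 and 194 FPKM in the CAR macrophage libraries, against 3.75, 3.64 and 4.09 FPKM in the progenitor libraries, a difference of 6.12 ± 0.19 (SE, edgeR adjusted p = 4.76e-16). None of them was above 5 FPKM in a progenitor library. Il6 rose by 11.06 ± 0.28 (SE, edgeR adjusted p = 2.93e-17) at 297 ± 9.92 FPKM, and Cd40, a costimulatory receptor, was at least 357-fold higher at 31.7 ± 1.6 FPKM. Cd86, a costimulatory ligand, stood at 7.33 ± 0.599 FPKM in CAR macrophages, 0.163 ± 0.0651 FPKM in control-CAR macrophages and 0.01 ± 0.0173 FPKM in progenitor cells, with 1 count over the progenitor libraries. Most of this list was higher still in control-CAR macrophages, where 16 of 23 exceeded the CAR level and 4 were below it. Cd40, Cd86 and Il10 were among the 4, at 5.2, 5.19 and 3.59 above control-CAR macrophages.

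All 20 tested chemokine genes rose over progenitor cells, with a median of 10.6, or 8.36 with 9 genes at their lower bound. Against control-CAR macrophages 8 were higher and 12 lower. Ccl5, which attracts T cells and monocytes, stood at 7189, 7636 and 7722 FPKM in the CAR macrophage libraries, against 0, 0 and 0.51 FPKM in the progenitor libraries, with 2 counts over the progenitor libraries. Cxcl2 and Cxcl3, which attract neutrophils, were at least 11000-fold and 15000-fold higher, at 1727 ± 21.5 and 2574 ± 36 FPKM. Cxcl1, of the same group, stood at 97, 93.4 and 102 FPKM in CAR macrophages and 0 FPKM in every control-CAR macrophage library, against 0 FPKM in every progenitor library, at least 517-fold above progenitor cells. Ccl9 and Ccl3 were already expressed by progenitor cells, at 134 ± 6.92 and 138 ± 5.47 FPKM, and rose by 3.86 ± 0.11 (SE, edgeR adjusted p = 2.01e-16) and 3.95 ± 0.069 (SE, edgeR adjusted p = 1.34e-19). Of genes linked to alternative activation 15 of 17 rose, led by Thbs1, the matrix protein thrombospondin 1, at 3805, 3892 and 3704 FPKM in the CAR macrophage libraries, against 0 FPKM in every progenitor library, at least 174000-fold higher. Tgfb1, a suppressive growth factor, fell by 0.7 ± 0.093 (SE, edgeR adjusted p = 1.11e-06). Chil3, a chitinase-like protein, stood at 154 ± 3.39 FPKM in CAR macrophages, 899 ± 47.2 FPKM in control-CAR macrophages and 0 FPKM in progenitor cells.

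Interferon-inducible genes set CAR macrophages apart from progenitor cells and from control-CAR macrophages. Gbp2, a guanylate-binding protein that attacks the membranes around pathogens, stood at 1826, 1827 and 1844 FPKM in CAR macrophages and 41.6, 48.1 and 42.1 FPKM in control-CAR macrophages, against 5.83, 4.82 and 4.85 FPKM in progenitor cells. Ubd, which encodes the ubiquitin-like protein FAT10, inducible by interferon, stood at 356, 367 and 369 FPKM in CAR macrophages and 0.19, 0.44 and 0.9 FPKM in control-CAR macrophages, against 0 FPKM in every progenitor library. Irf1, a factor induced by interferon gamma, stood at 368, 362 and 375 FPKM in CAR macrophages and 26.7, 29.8 and 29.1 FPKM in control-CAR macrophages, against 17.7, 19.2 and 18.7 FPKM in progenitor cells. In all of them every CAR library was higher than every control-CAR and progenitor library. Gbp2 rose by 8.96 ± 0.12 (SE, edgeR adjusted p = 5.79e-21) over progenitor cells and by 5.08 ± 0.096 (SE, edgeR adjusted p = 3.44e-18) over control-CAR macrophages. Irf1 rose by 4.8 ± 0.079 (SE, edgeR adjusted p = 6.47e-20) and 3.39 ± 0.073 (SE, edgeR adjusted p = 1.65e-17) in the same 2 comparisons, and Ubd was at least 1880-fold higher than in progenitor cells. Of 21 tested GTPases and regulators of the interferon gamma response 20 rose and 1 fell, with a median of 6.03, and 18 were higher in CAR than in control-CAR macrophages. The faller was Ifngr1, a chain of the interferon gamma receptor itself, at -0.66 ± 0.056 (SE, edgeR adjusted p = 2.21e-09). The median level of the list was 91.7 FPKM in CAR macrophages, 5.09 FPKM in control-CAR macrophages and 8.89 FPKM in BMDM. Gbp6 and Gbp4 were at least 3050-fold and 1490-fold above progenitor cells, at 91.7 ± 2.71 and 43.8 ± 1.44 FPKM. Several Gbp genes are close copies of each other, so reads may be split between them with error.

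All 24 tested type I interferon response genes rose over progenitor cells, with a median of 5.05, and 21 were higher in CAR than in control-CAR macrophages. The median level of this list was 22.5 FPKM in CAR macrophages, 7.97 FPKM in control-CAR macrophages and 17.5 FPKM in BMDM, so BMDM lay nearer to the CAR level. Isg15, a ubiquitin-like antiviral protein, stood at 284, 289 and 275 FPKM in CAR macrophages and 124, 166 and 147 FPKM in control-CAR macrophages, against 3.76, 3.98 and 3.07 FPKM in progenitor cells. Rsad2, the antiviral protein viperin, stood at 90.9, 88 and 84 FPKM in CAR macrophages and 17.4, 19.8 and 18.5 FPKM in control-CAR macrophages, against 0.53, 0.64 and 0.59 FPKM in progenitor cells. CAR libraries led in both. The log2 differences from progenitor cells were 6.77 ± 0.16 (SE, edgeR adjusted p = 7.3e-18) for Isg15 and 7.7 ± 0.15 (SE, edgeR adjusted p = 7.82e-19) for Rsad2, and from control-CAR macrophages 0.66 and 1.93. Ifit3 was at least 154-fold higher than in progenitor cells.

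The promoters of 3 of these genes are shown for the elements that interferon-activated factors recognise. Capitals mark the interferon-stimulated response element (TTTC, any 2 bases and TTTC again, on either strand) in Gbp2 and Isg15, and in Gbp5 that element and the gamma-activated sequence (TTCNNNGAA, its own reverse complement). Windows are as before, 250 bases before the RefSeq start in GRCm38.p6, with Gbp2 at chr3:142620413-142620662, plus strand, Gbp5 at chr3:142496684-142496933, plus strand and Isg15 at chr4:156200819-156201068, minus strand. The 3 matches in Isg15 overlap.
Gbp2: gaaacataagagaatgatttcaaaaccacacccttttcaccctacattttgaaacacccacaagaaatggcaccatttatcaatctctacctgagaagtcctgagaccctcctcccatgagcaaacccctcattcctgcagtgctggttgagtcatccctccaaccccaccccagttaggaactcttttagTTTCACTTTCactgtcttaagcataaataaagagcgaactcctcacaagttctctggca
Gbp5: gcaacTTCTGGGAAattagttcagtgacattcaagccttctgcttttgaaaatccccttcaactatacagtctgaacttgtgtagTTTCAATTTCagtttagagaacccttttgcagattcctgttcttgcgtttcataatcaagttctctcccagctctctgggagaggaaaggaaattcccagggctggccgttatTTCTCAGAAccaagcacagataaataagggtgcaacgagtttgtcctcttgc
Isg15: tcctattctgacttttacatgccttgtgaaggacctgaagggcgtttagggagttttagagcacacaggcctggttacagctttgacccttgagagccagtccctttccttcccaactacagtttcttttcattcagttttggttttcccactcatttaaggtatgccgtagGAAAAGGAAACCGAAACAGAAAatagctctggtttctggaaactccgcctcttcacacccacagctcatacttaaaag
The response element was found in 10 of 15 interferon gamma genes with a window (66.7%) and 8 of 19 type I genes (42.1%), and in 2 of 18 class I presentation genes (11.1%), against 3.37% of 9535 tested genes. The gamma-activated sequence was found in 7 of the 15 interferon gamma genes (46.7%), against 7.22% of all. Gbp5 stood at 171 ± 2.59 FPKM in CAR macrophages, 14 ± 2.28 FPKM in control-CAR macrophages and 0.863 ± 0.208 FPKM in progenitor cells.

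Most class I antigen presentation genes rose. Of 20 tested members 18 rose and none fell under TMM, with a median of 2.49, while library totals gave 18 rises and 2 falls. Against control-CAR macrophages 17 were higher and 2 lower, and in control-CAR macrophages against progenitor cells the median was 0.33. Tap1, a subunit of the peptide transporter, stood at 235, 238 and 239.6 FPKM in CAR macrophages and 22.5, 25.2 and 22.5 FPKM in control-CAR macrophages, against 42.9, 40.1 and 40.4 FPKM in progenitor cells. Its log2 difference was 3.01 ± 0.068 (SE, edgeR adjusted p = 5.46e-18) from progenitor cells and 3.04 ± 0.069 (SE, edgeR adjusted p = 2.97e-17) from control-CAR macrophages, whereas control-CAR macrophages differed from progenitor cells by -0.02 ± 0.067 (SE, edgeR adjusted p = 0.781). Nlrc5, the regulator of class I genes, stood at 27.9, 27.9 and 27.3 FPKM in CAR macrophages and 0.12, 0.08 and 0.11 FPKM in control-CAR macrophages, against 0.01, 0.02 and 0 FPKM in progenitor cells, a difference of 11.68 ± 0.15 (SE, edgeR adjusted p = 4.75e-21). H2-Q4 and H2-Q6, class I genes of the Q region, rose by 5.52 ± 0.096 (SE, edgeR adjusted p = 1.28e-19) and 6.2 ± 0.16 (SE, edgeR adjusted p = 3.26e-17), with the reservation that class I genes are close copies of each other. H2-T23, the non-classical class I gene Qa-1, rose by 3.81 ± 0.073 (SE, edgeR adjusted p = 5.49e-19). Class II genes were mixed, with 7 of 10 higher and 3 lower. Cd74, the invariant chain, stood at 304, 306 and 313 FPKM in CAR macrophages and 910.1, 1049.6 and 1045 FPKM in control-CAR macrophages, against 0.16, 0.37 and 0.23 FPKM in progenitor cells, a difference of 10.63 ± 0.15 (SE, edgeR adjusted p = 8.16e-21). H2-Ab1, a class II beta chain, stood at 9.07, 8.04 and 10.3 FPKM in the CAR macrophage libraries, against 2.47, 2.52 and 2.52 FPKM in the progenitor libraries, and rose by 2.35 ± 0.16 (SE, edgeR adjusted p = 6.2e-11), against a BMDM mean of 269.9 ± 17.9 FPKM. The fallers were peptide loading genes, H2-DMa at -1.42 ± 0.096 (SE, edgeR adjusted p = 8.38e-11), H2-DMb2 at -1.25 and H2-Ob at -2.4.

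**Figure D5:**
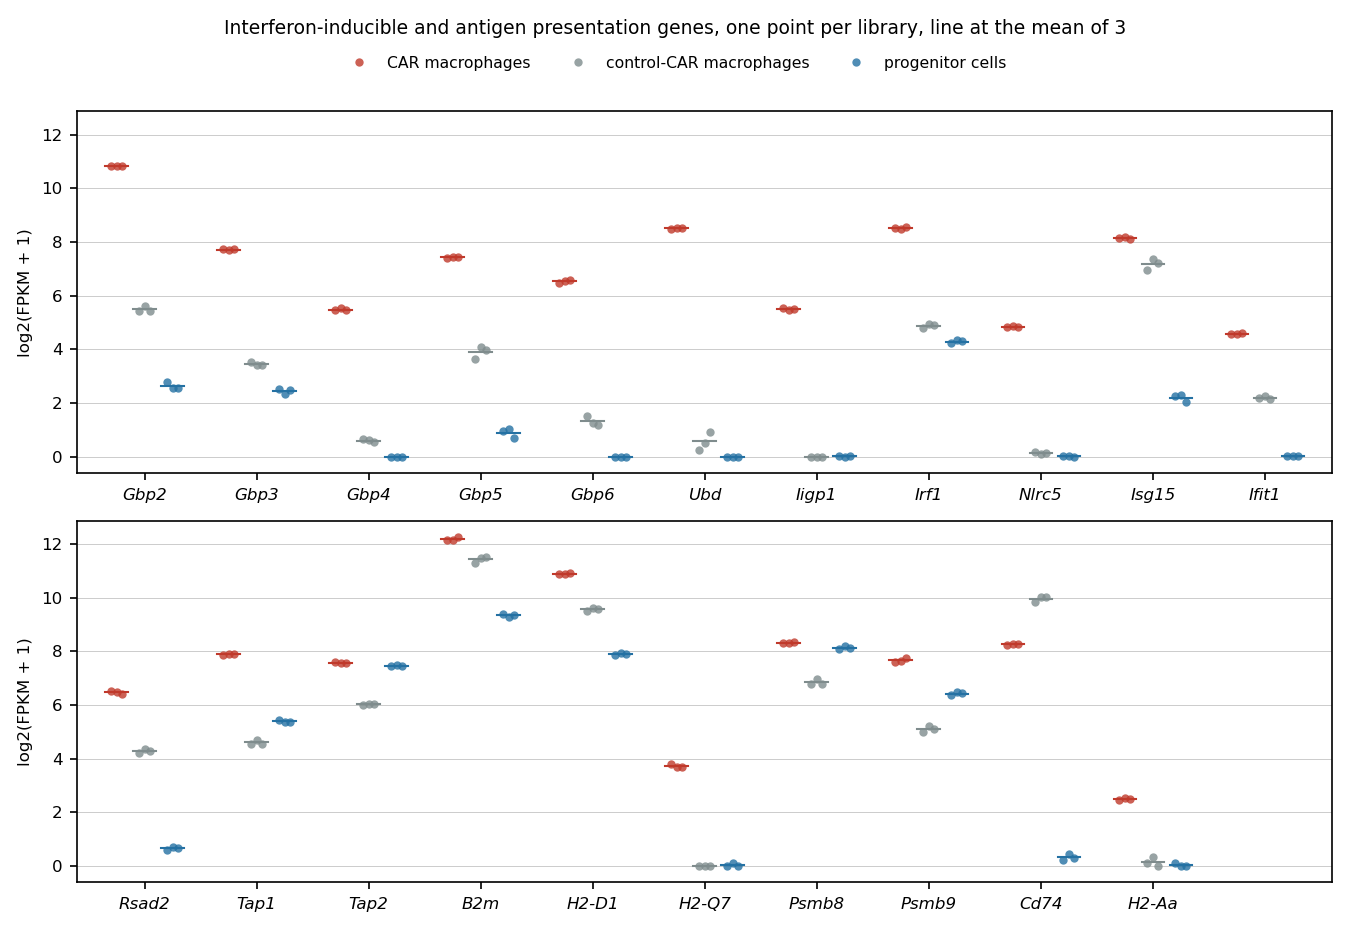
Level of interferon-inducible and antigen presentation genes on the log2(FPKM + 1) scale, with 1 point per library and a line at the mean of 3, in CAR macrophages (red), control-CAR macrophages (grey) and progenitor cells (blue). The CAR points for the Gbp genes, Ubd, Iigp1, Irf1 and Nlrc5 lie above both other groups, and for Tap1, Tap2, Psmb8 and Psmb9 the progenitor points lie above the control-CAR points. That gap is in FPKM, and for Tap1 the difference of control-CAR macrophages from progenitor cells did not pass under TMM.

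Glycolysis and hypoxia genes rose less than in control-CAR macrophages. Of 27 tested members 20 rose and 3 fell, with a median of 1.11, against 26 rises and a median of 2.55 in control-CAR macrophages, and 25 were lower in CAR than in control-CAR macrophages. With library totals 19 rose and 8 fell in CAR macrophages. Slc2a1, the glucose transporter GLUT1, stood at 283, 282 and 283 FPKM in CAR macrophages and 798, 790.2 and 748 FPKM in control-CAR macrophages, against 26.7, 31.2 and 29.4 FPKM in progenitor cells, a log2 difference of 3.76 ± 0.067 (SE, edgeR adjusted p = 1.83e-19) from progenitor cells and -1.77 ± 0.060 (SE, edgeR adjusted p = 7.55e-15) from control-CAR macrophages. Slc16a3, a lactate exporter, stood at 152, 149 and 154 FPKM in CAR macrophages and 33.2, 40.2 and 35.4 FPKM in control-CAR macrophages, against 4.31, 4.29 and 4.11 FPKM in progenitor cells, and was higher in CAR macrophages than in either, by 5.64 ± 0.094 (SE, edgeR adjusted p = 7.72e-20) and 1.76 ± 0.074 (SE, edgeR adjusted p = 1.55e-13). Pdk1, the kinase that keeps pyruvate out of mitochondria, fell by 0.95 ± 0.059 (SE, edgeR adjusted p = 2.04e-11), with Pfkfb3, a regulator of glycolytic flux, at -0.65 and Hk3, a hexokinase of myeloid cells, at -0.27.

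Among Bcl2 family genes, which decide on cell death, 13 of 17 rose and 4 fell, or 10 and 5 with library totals. Bcl2, which protects cells from death, stood at 2.13, 2.04 and 1.85 FPKM in CAR macrophages and 0.83, 0.77 and 0.83 FPKM in control-CAR macrophages, against 20.7, 20.1 and 19 FPKM in progenitor cells, and fell by 2.83 ± 0.066 (SE, edgeR adjusted p = 9.56e-18). The other fallers promote death, Bbc3 at -1.03, Pmaip1 at -0.25 and Bid at -0.21. Mcl1, a protector on which myeloid cells depend, stood at 211, 218 and 221 FPKM in the CAR macrophage libraries, against 69.9, 68.5 and 71 FPKM in the progenitor libraries, and rose by 2.12 ± 0.061 (SE, edgeR adjusted p = 2.13e-16). The Bcl2a1 copies, protectors induced by inflammation, had 0 counts in progenitor cells and averaged 337 ± 7.51 FPKM for Bcl2a1b, at least 1250-fold higher, though reads of the near-identical copies cannot be placed with certainty. Bok, a Bcl2 relative with a role in cell death, stood at 17.2, 17.2 and 16.9 FPKM in CAR macrophages and 0.05, 0.04 and 0 FPKM in control-CAR macrophages, against 8.2, 8.42 and 8.78 FPKM in progenitor cells. Its log2 difference from progenitor cells was 1.5 ± 0.12 (SE, edgeR adjusted p = 7.58e-10), and the control-CAR libraries held 2 counts of it in all.

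Across all genes, the 12 largest rises on the log2(FPKM + 1) scale were Ccl5, Thbs1, Il1b, Cxcl3, Stfa3, Cstdc4, Ccl6, Cxcl2, Csta2, Hamp, Gpnmb and Nos2. Hamp, the iron hormone hepcidin, stood at 1661, 1673 and 1731 FPKM in the CAR macrophage libraries, against 0 FPKM in every progenitor library, at least 1460-fold higher, and has a close copy in the mouse genome. Stfa3, Cstdc4 and Csta2 are stefin genes, inhibitors of cathepsins in a cluster of close copies, and their separate values are uncertain. The 12 largest falls were Ms4a3, Glb1l2, Susd5, Nrgn, Mpo, Emid1, Itga9, Myb, F13a1, Adgrl4, Rasgrp2 and Rhoj. Nrgn, a calmodulin-binding protein best known from neurons, stood at 0.17, 0.06 and 0.11 FPKM in the CAR macrophage libraries, against 99.3, 97.2 and 96.8 FPKM in the progenitor libraries. F13a1, the A subunit of clotting factor XIII, stood at 3.1, 3.9 and 3.69 FPKM in the CAR macrophage libraries, against 261, 245 and 239 FPKM in the progenitor libraries. Rasgrp2, an activator of Rap1, stood at 0.24, 0.73 and 0.77 FPKM in the CAR macrophage libraries, against 75.4, 80.1 and 78.2 FPKM in the progenitor libraries. The log2 differences of these fallers were -9.2 ± 0.17 (SE, edgeR adjusted p = 2.02e-19) for Nrgn, -5.63 ± 0.081 (SE, edgeR adjusted p = 1.34e-20) for F13a1 and -7.69 ± 0.21 (SE, edgeR adjusted p = 1.15e-16) for Rasgrp2.

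Markers of cells that a bone marrow culture could also hold were measured beside these results. Of 20 tested neutrophil genes 16 rose and 1 fell against progenitor cells, with 13 at 0 counts in progenitor cells, and their summed FPKM was 8276 to 8687 in CAR, 32708 to 37943 in control-CAR and 17.3 to 21.1 in progenitor libraries. Lcn2, lipocalin 2, which macrophages also make, stood at 5546 ± 90.2 FPKM in CAR macrophages, 15079 ± 559 FPKM in control-CAR macrophages and 12.5 ± 1.26 FPKM in progenitor cells. S100a9, a calprotectin chain abundant in neutrophils but not exclusive to them, stood at 1.79, 2.28 and 2.91 FPKM in CAR macrophages. It stood at 431, 376 and 411 FPKM in control-CAR macrophages and 0 FPKM in every progenitor library. Of the 20 neutrophil genes, 18 were lower in CAR than in control-CAR macrophages. Fibroblast genes rose in 7 of 8 tested, led by Fn1, fibronectin, at 44, 45.5 and 43.7 FPKM in CAR macrophages and 0.01, 0.02 and 0.02 FPKM in control-CAR macrophages, against 0 FPKM in every progenitor library, and Sparc, a matrix protein, at 15.9, 16.8 and 16.4 FPKM in CAR macrophages and 0 FPKM in every control-CAR macrophage library, against 0 FPKM in every progenitor library. Their summed FPKM was 96.4 to 99.6 in CAR, 17.5 to 20.6 in control-CAR and 23.4 to 24.8 in progenitor libraries, while Pdgfra, Col3a1 and Postn, which define fibroblasts, averaged 0.78 ± 0.115, 0.143 ± 0.0451 and 0.00667 ± 0.0115 FPKM in CAR macrophages. BMDM also expressed the tested fibroblast genes, with a list median of 3.34 FPKM, beside 4.84 FPKM in CAR and 0.057 FPKM in control-CAR macrophages. Of 5 tested epithelial genes 3 rose and 1 fell. Their summed FPKM was 11.8 to 12.3 in CAR, 10.6 to 13 in control-CAR and 5.13 to 6.08 in progenitor libraries. The median of the tested epithelial genes was 1.2 FPKM in BMDM, 2.02 FPKM in CAR and 0 FPKM in control-CAR macrophages. Krt20, a keratin of the gut surface, stood at 5.51, 5.45 and 5.42 FPKM in CAR macrophages and 0 FPKM in every control-CAR macrophage library, against 0 FPKM in every progenitor library, while Epcam averaged 0.02 ± 0.0173 FPKM and Krt8 0.0133 ± 0.0231 FPKM in CAR macrophages. Il7r, the interleukin 7 receptor of lymphocytes, which macrophages can also express, stood at 74.3, 75.8 and 76.7 FPKM in CAR macrophages and 44.6, 33.9 and 37.5 FPKM in control-CAR macrophages, against 0.28, 0.31 and 0.41 FPKM in progenitor cells, while Cd3e, which defines T cells, had 0 counts in CAR macrophages. Genes used for dendritic cells summed to 458 to 478 FPKM in CAR, 401 to 535 in control-CAR and 6.52 to 7.18 in progenitor libraries, and those for megakaryocytes to 407 to 418, 935 to 1005 and 165 to 168 FPKM. Hbb-bt, an adult beta globin with a near-identical neighbour, stood at 62.1, 57 and 66.8 FPKM in the CAR macrophage libraries, against 1.46, 0.87 and 0.71 FPKM in the progenitor libraries. The part of such cells in the CAR levels was not tested.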

How the data were processed

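Per the labels' protocols, total RNA (TRIzol, DNase) was enriched for polyadenylated molecules on oligo(dT) and sequenced as DNA nanoballs. The authors deposited estimated counts per gene (RSEM expected counts, per the file headers and values), with FPKM and TPM columns per the file headers. The submitters' processing notes name HISAT2, Bowtie2, RSEM 1.3.1, DESeq2 1.4.5 and GRCm38.p6. The sources used here give neither their roles nor the annotation nor the use of strand, so overlapping and antisense genes cannot be told apart. The 15 deposited columns of group averages were not used, and 25 gene symbols that had turned into dates were restored from their identifiers.

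Expected counts were rounded and tested with edgeR 4.0.16 (quasi-likelihood, TMM, R 4.3.3) in 1 model of all 15 libraries and 5 groups, with 10 residual degrees of freedom. The 11793 genes at 1 FPKM or more in at least 3 libraries were tested, and 5237 were not. Tests were two-sided, Benjamini-Hochberg adjusted over all tested genes and called at 0.05. In simulated counts for the comparison of CAR macrophages with progenitor cells over 11793 genes, the test found 94% of genes altered 1.5-fold, 98.5% at 2-fold and 100% at 4-fold, with 14 of 11593 unchanged genes called. The unchanged genes had equal means in both groups, genes with low expected counts were not altered, and directions were random. The simulation therefore cannot show how the test or TMM performs where 85.6% of genes are called, as in these data. Against a group with 0 counts, a fold is a lower bound with 3 counts per library in its place, and that floor covers counting error only. Library pairs within the CAR and progenitor groups differed by 1.39 to 3.36 times the chi-square value that counting noise gives, so no 2 were merged. Pairs within the other groups, which share the estimate of spread, differed by 2.88 to 20.4 times that value. Same-numbered libraries did not pair.

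The gene lists, their members and the motifs were chosen with earlier results of these data known. Named genes were, in each list, up to 4 called genes with the largest and up to 3 with the smallest differences at 5 FPKM or more, a fixed set, and the 12 largest rises and falls at 10 FPKM or more whose groups do not overlap. Outside that rule, chosen after their values were seen, are Adgrg1, Apoe, Bbc3, Bok, C1qb, C1qc, Ccne1, Cd24a, Cd3e, Cd48, Cd63, Cebpa, Cebpd, Col3a1, Csf2ra, Ctsd, Dock2, Elmo1, Epcam, Fcer1g, Gbp2, Gbp5, Gfi1b, H2-DMb2, H2-Ob, Hfe, Hk3, Hp, Id2, Il10, Il3ra, Isg15, Klf6, Krt8, Lamp1, Lcn2, Lmo2, Mcm5, Mcpt8, Ncoa4, Pdgfra, Pdk1, Pfkfb3, Plin2, Postn, Psap, Psmb8, Psmb9, Runx1, S100a9, Slamf1, Spn, Srgn, Steap3, Syk and Tyrobp. Promoter windows (RefSeq, GRCm38.p6) cover 250 bases before each start. A few members of these lists are not reported here. Symbols were matched by identifier for 16978 of 17030 genes. Figures were drawn with matplotlib 3.10.9.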

Additional observations from a re-analysis of the deposited data

How the results depend on the processing

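The count of genes called between CAR macrophages and progenitor cells, 10097 under TMM, was 10018 with DESeq2, 10530 with library totals and 10606 with only the 6 libraries compared. With no filter on low values 12048 of 17009 genes were called, of which 10133 were among the same 11793 genes. Leaving out each CAR or progenitor library in turn gave 9797 to 9908. The labels give the groups the same library numbers, and correlations of same-numbered libraries were between -0.0259 and 0.0814, with each library not always closest to its own number. With the replicate block, 10028 genes were called. Of 203 named genes with a fitted difference, 185 kept direction and side of the threshold under every alternative. The split into higher and lower genes is limited by scaling: 53.7% of the called genes were higher under TMM, 47.9% with upper-quartile factors, 39.7% after quantile normalisation, 37.4% with library totals, 37.5% on log2(FPKM + 1) and 36.4% on log2(TPM + 1). Depth limits genes with 3 counts or fewer in a group. Fitted differences of single such genes are given only in the next paragraph, where their sign turned round.

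Log2 differences turned round for Anxa3, Gata2, Kif23, Spi1 and Mthfd2. With library totals they were -0.31 for Anxa3, -0.364 for Gata2, -0.46 for Kif23, -0.377 for Spi1 and -0.112 for Mthfd2. On log2(FPKM + 1) they were -0.307, -0.361, -0.418, -0.373 and -0.112, on log2(FPKM + 0.1) -0.311, -0.366, -0.44, -0.376 and -0.114, and on log2(TPM + 1) -0.353, -0.408, -0.471, -0.419 and -0.157, in the same order. After quantile normalisation the first 4 were at -0.0103, -0.129, -0.13 and -0.143, and Cebpe (-0.521), Gfi1b (-0.801), C1qb (-0.319), C1qc (-0.45), Epcam (-0.873), Mrc1 (-1.49), Pparg (-0.448) and S100a9 (-0.13) also turned round. Of these C1qb, C1qc, Epcam, Pparg and S100a9 were listed at 0 FPKM in every progenitor library, so their fitted values depend on the prior count and are no measure of size. With upper-quartile factors Gata2 was at -0.0304, Kif23 at -0.126 and Spi1 at -0.0434. Kif23 was at -0.0105 with DESeq2 and with its size factors, -0.0606 with no filter, -0.00685 with edgeR's own filter, and between -0.0466 and 0.036 when single CAR or progenitor libraries were left out, with the sign turned without progenitor replicate 2 (-0.0466) and 3 (-0.0121). The cause was not tested.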
